A study of Mus musculus with 24 samples.

Results

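Genes of epididymal white adipose tissue (eWAT) were examined for how they vary together among mice of the same diet and genotype, and for how far those mice lie apart. All 24 libraries entered, and 15020 of the 16730 genes in the count table were kept because they reached a CPM (counts scaled by library size) of 1 in at least 3 mice. Each count was turned into log2 CPM, and the mean of the mouse's own group was subtracted from every gene. What is left, called the residual, is the amount in log2 CPM by which a mouse lies above or below the other mice of its group. No group means were compared.

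The eWAT, labelled gWAT, came from male mice, 6 in each of 4 groups, and each library is a separate mouse. Control littermates (Lama4 fl/fl) carried the floxed Lama4 alleles. Knockout mice (Lama4 AKO) carried the same alleles with Cre driven by the adiponectin promoter, so that exon 3 of Lama4, which is flanked by loxP sites, is removed in cells that use this promoter. Chow-fed mice received diet 5015 until 24 weeks of age, and HFD-fed mice received a diet with 45% of energy from fat from 6 to 26 weeks of age, for 20 weeks, so age differs with diet. The groups are called chow fl/fl, chow AKO, HFD fl/fl and HFD AKO below, with the mouse number of the labels.

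White fat holds adipocytes, which store triglyceride, beside macrophages, lymphocytes, mast cells, vessels, progenitors and a covering of mesothelium. In obese epididymal fat, macrophages gather around dying adipocytes and take up their lipid. Laminin α4, the product of Lama4, is a chain of the basement membrane that surrounds adipocytes and capillaries. In bulk tissue, fewer cells of a type and less RNA per cell cannot be told apart, and this holds for every gene list below.

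Totals ran from 5579590 to 18764516 counts per library, with 16201 to 16674 genes detected, and mitochondrially encoded transcripts took 5.768% to 12.84% of counts. No pair of libraries in a group was alike to within sampling noise (chi-square per degree of freedom from 5.72 to 363 over 60 pairs). The assay reads the 3′ end of transcripts, which lies outside the deleted exon 3, so Lama4 counts do not check the deletion, and AKO below means the libraries labelled so. All 21 listed adipocyte markers were measured. The mean level of that list ran from 8.21 to 10.76 log2 CPM over the 24 mice. None of the 11 epididymal epithelium genes passed the filter.

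Some libraries stood apart or sat with the other diet, and this bears on every result that follows. For each library, genes were counted that lay at least 1.5 log2 units beyond the nearest mouse of the group, with that gap making up at least 70% of the group's range. This was done over the 10717 genes with a mean of at least 5 CPM, by a rule set after values had been seen. Mouse 1 of chow fl/fl had 310 genes far below its group and 33 above. Mouse 3 of chow fl/fl had 155 far below, mouse 2 of HFD fl/fl had 55 far below, mouse 6 of HFD AKO had 18 far above and mouse 6 of chow AKO had 11 far above. All other libraries had 0 or 1 such gene in either direction.

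The 155 genes low in mouse 3 of chow fl/fl took a low level in most HFD-fed mice and a high level in every other chow-fed mouse. Their median in chow fl/fl was 5.43, 5.28, 3.01, 5.40, 5.34 and 5.26 log2 CPM in mice 1 to 6, and in chow AKO it lay between 4.86 and 5.45. Among HFD fl/fl mice the medians were 3.43, 4.17, 5.36, 5.09, 3.81 and 5.13. In HFD AKO they were 3.66, 3.89, 3.69, 3.58, 3.96 and 4.73. Mouse 3 of chow fl/fl was thus on the low side with HFD-fed mice, while mice 3, 4 and 6 of HFD fl/fl and mouse 6 of HFD AKO were on the high side with chow-fed mice.

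Counted gene by gene, the 155 were nearer the level of chow fl/fl mouse 3 than the mean of the other 5 chow fl/fl mice for 143, 70, 0, 0, 118 and 0 genes in HFD fl/fl mice 1 to 6. The counts in HFD AKO were 132, 116, 128, 134, 103 and 9 genes. In chow AKO they were at most 3. Mouse 2 of HFD fl/fl, with 70 of 155, lay between the 2 sides. Of the 18 genes high in HFD AKO mouse 6, 9 belonged to the 155, which is 50% of the 18 and 5.81% of the 155.

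Adap2, among the 10 genes of largest SD in chow fl/fl, shows the pattern in a single gene. It encodes a GTPase-activating protein for Arf6. In chow fl/fl it was 7.43, 7.27, 1.22, 7.50, 7.24 and 7.17 log2 CPM in mice 1 to 6, and in chow AKO it lay between 6.39 and 7.84. In HFD fl/fl it was 2.48, 5.44, 7.41, 7.01, 2.39 and 6.50. In HFD AKO it was 1.61, 2.52, 3.15, 2.34, 2.67 and 6.14. Mice 3, 4 and 6 of HFD fl/fl lay within the chow AKO range, and mouse 6 of HFD AKO lay just below it.

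Prpf4b, a splicing kinase chosen after its values were seen, was 4.14 log2 CPM in chow fl/fl mouse 3 and 7.32 to 7.84 in its group mates. Among HFD fl/fl mice it was 4.85 in mouse 1 and again 4.85 in mouse 5, against 7.27 to 7.57 in mice 3, 4 and 6, with 6.48 in mouse 2. In HFD AKO it was 6.80 in mouse 6 and 4.44 to 4.99 in the others. The 155 genes were long, with a median genomic span of 51.6 kb against 24.3 kb for all 10717 genes compared. What placed these mice with the other diet was not tested, and neither was whether their labels are right. Group means, and so every residual and spread below, take the labels as given. Main results below are given again without the 5 libraries on the other diet's side (mouse 3 of chow fl/fl, mice 3, 4 and 6 of HFD fl/fl, mouse 6 of HFD AKO). A second alternative leaves out the 4 libraries that stand apart by the count of genes (mice 1 and 3 of chow fl/fl, mouse 2 of HFD fl/fl, mouse 6 of HFD AKO). Both were chosen after values had been seen.

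**Figure D1:**
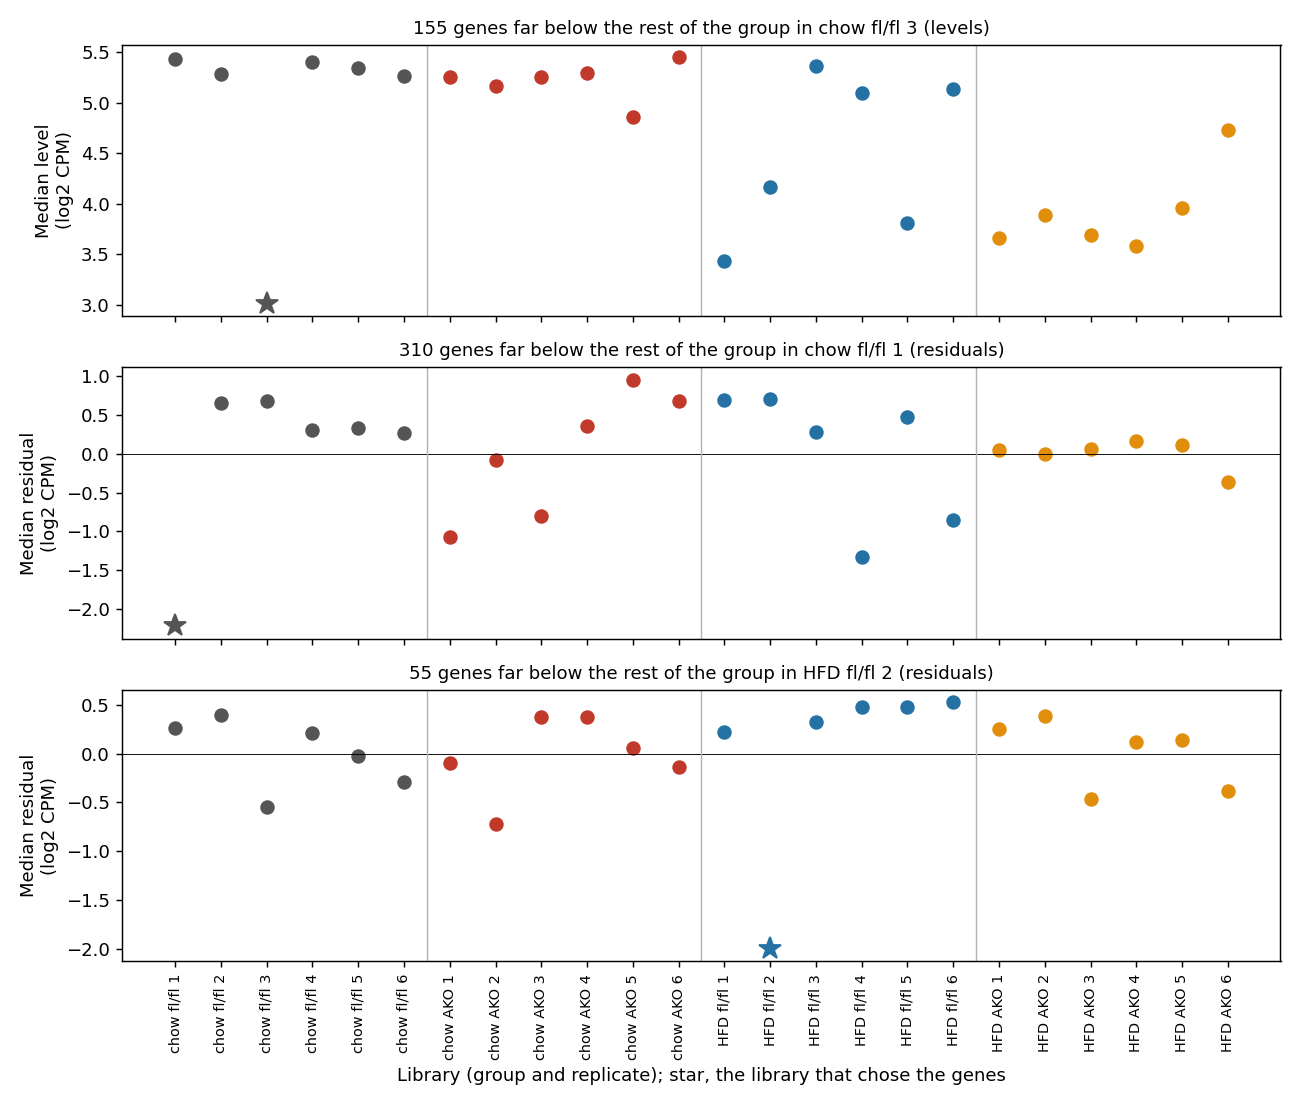
Genes far from their group in 1 library, plotted by library (x axis, 24 mice in 4 groups). The top panel gives the median level in log2 CPM of the 155 genes low in chow fl/fl mouse 3, and the lower panels give median residuals in log2 CPM of the 310 genes low in chow fl/fl mouse 1 and the 55 low in HFD fl/fl mouse 2. Stars mark the library that chose the genes; in the top panel HFD fl/fl mice 3, 4 and 6 lie between 5.09 and 5.36, level with chow-fed mice.

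A single axis carried much of the variation within groups: the first principal component of the residuals held 41.18% of their variance, against 11.56%, 8.021% and 7.649% for the next components. The 10 genes of largest weight at its positive end included Rnase2a, an eosinophil-type ribonuclease, Cyp2e1, an oxidising P450 enzyme, Mrgprg, a sensory G-protein-coupled receptor, and Adrb3, the adipocyte β3-adrenergic receptor. Those at its negative end included the immunoglobulin heavy chains Ighg1 and Ighg2b, Serpinb9b, Clec4d, a C-type lectin of myeloid cells, and the mast cell protease Mcpt4. Scores in HFD fl/fl were -69.23, -45.97, 9.024, 83.08, -42.92 and 66.01 in mice 1 to 6, and this group held 47.31% of the component's variance. HFD AKO held 5.413%, with 43.33 in mouse 6 and -11.87 to -3.76 in the other 5 mice. Chow fl/fl held 26.74%, spanning -61.14 in mouse 3 to 83.71 in mouse 1, and chow AKO held 20.54%, spanning -54.93 in mouse 5 to 43.96 in mouse 1. The positive mice of the HFD groups (3, 4 and 6 of HFD fl/fl, 6 of HFD AKO) are the mice on the chow side of the 155 genes. Without the 5 libraries on the other diet's side the component held 34.17% of the variance, and without the 4 that stand apart 42.08%.

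The component was set against library quantities in 6 relations, by permutation within groups with adjustment over the 6. With the TMM scaling factor the correlation over 24 mice was r = -0.4793 (rho = -0.4339, permutation adjusted p = 0.152). Within groups it was -0.6457 in chow AKO, -0.6355 in HFD fl/fl, -0.1466 in HFD AKO and -0.03838 in chow fl/fl. With the log2 total the first component had r = 0.00241, but the groups differed in sign. Within groups this r was -0.6159 in chow fl/fl, 0.7217 in chow AKO, -0.726 in HFD fl/fl and -0.06501 in HFD AKO. With the number of genes detected the first component had r = 0.2604 (rho = 0.3896, permutation adjusted p = 0.376), and 0.4719 without the 2 farthest. Within groups that r was -0.4233 in chow fl/fl, 0.4459 in chow AKO, 0.6596 in HFD fl/fl and 0.546 in HFD AKO. The second component went with the number of genes detected at r = -0.4315 (rho = -0.52, permutation adjusted p = 0.152). Without the 2 libraries farthest from the median this r was -0.6689. Within groups it was -0.9121 in HFD fl/fl, -0.8006 in chow fl/fl, -0.2094 in HFD AKO and 0.2797 in chow AKO. Links of the second component to gene detection, and of the first to the TMM factor, library total or gene detection, therefore cannot be set aside. None of the 6 passed 0.05 after adjustment with all mice.

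Adipocyte and macrophage genes lay at opposite ends of this axis. Adipoq, the adipocyte hormone adiponectin, was 12.95, 10.32, 11.24, 10.87, 11.32 and 11.25 log2 CPM in chow fl/fl mice 1 to 6. In chow AKO it was 12.34, 11.99, 12.07, 11.06, 9.88 and 10.34. In HFD fl/fl it was 9.69, 10.04, 10.72, 12.54, 10.28 and 11.97. In HFD AKO it was 10.14, 9.86, 10.18, 9.58, 9.74 and 10.79. Mouse 1 was the highest of both chow groups, and mice 4 and 6 of HFD fl/fl stood above the rest of theirs.

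Cd68, a lysosomal glycoprotein of macrophages, was 6.37, 9.82, 9.89, 9.44, 9.53 and 9.44 log2 CPM in chow fl/fl. In chow AKO it was 6.90, 8.53, 7.11, 8.5, 9.97 and 9.17. Among HFD fl/fl mice it was 10.02, 10.43, 9.37, 7.41, 9.71 and 7.95. In HFD AKO it was 10.22, 10.14, 10.18, 10.53, 10.32 and 9.71. The mice highest in Adipoq were the lowest in Cd68 in every group. Over 24 mice the residuals correlated at r = -0.9203 (rho = -0.8643, permutation adjusted p = 1.88e-05), at -0.8892 without the 2 mice farthest from the median, and at -0.9107 to -0.9783 within each group. Among the 15 gene pairs tested, 100000 permutations can give no p below 1e-05, so 1.88e-05 is the smallest adjusted value seen here. Without the 5 libraries on the other diet's side r was -0.906.

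**Figure D2:**
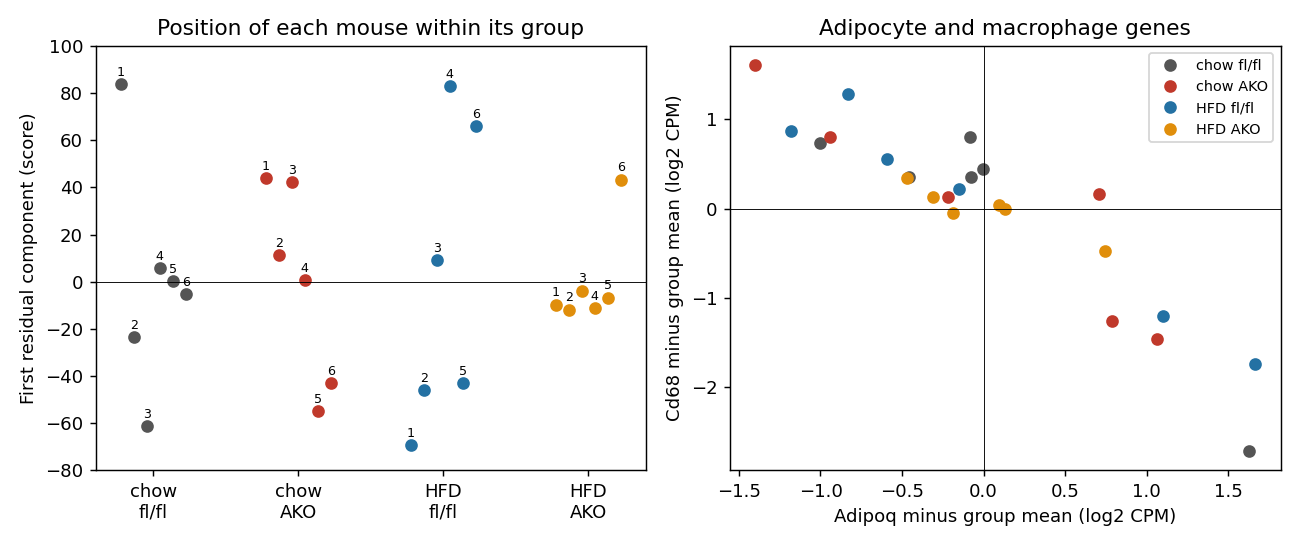
Left, score of each mouse (points, numbered by replicate) on the first residual component, by group. Right, residuals in log2 CPM of Adipoq (x axis) and Cd68 (y axis), 1 point per mouse coloured by group; r is -0.9203 over 24 mice. HFD AKO mice other than mouse 6 lie between -11.87 and -3.76 on the left.

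Every gene was then tested for its slope on an anchor gene, with a coefficient for each group (edgeR quasi-likelihood test, Benjamini-Hochberg adjustment over 15019 genes). A slope is the difference in a gene's log2 CPM per 1 log2 CPM of the anchor among mice of the same group. With Adipoq, 3555 genes had a positive and 3857 a negative slope at an adjusted p of at most 0.05, which is 23.7% and 25.7% of all genes tested. The other 20 adipocyte markers all rose with Adipoq, with a median slope of 0.689 against -0.00572 over all genes. Among them Lipe, hormone-sensitive lipase, had a slope of 0.81 (edgeR adjusted p = 7.99e-11), Plin1, the lipid droplet coat protein, 0.691 (5.54e-11) and Lep, leptin, 0.837 (2.3e-05). Rbp4, the retinol carrier, had the lowest p of all (slope 1.21, edgeR adjusted p = 5.07e-12). Prkcb, a protein kinase C of leukocytes, had the lowest p among negative slopes (-1.16, edgeR adjusted p = 3.54e-11).

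Fatty acid synthesis followed the adipocyte markers. Of 15 lipogenesis genes 13 rose with Adipoq and none fell, among them Scd1, which desaturates stearate (slope 0.989), Fasn, fatty acid synthase (0.834), and Acly, which makes cytosolic acetyl-CoA (0.401). Of 17 genes that break down branched-chain amino acids 16 rose and 1 fell. Bckdha, a subunit of the committed dehydrogenase step, had a slope of 0.45. Of 12 endothelial markers 11 rose, including Cdh5, the endothelial cadherin (0.484). All 5 red blood cell genes rose, with Hbb-bs, a haemoglobin chain, at 0.642.

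Genes of immune cells fell with Adipoq. Of 17 macrophage markers 15 fell, and the 2 that rose were Cd163 and Lyve1 (slopes 0.587 and 0.81). Adgre1, which encodes F4/80, fell at a slope of -1.03. Of 13 lipid-associated macrophage genes 12 fell, with Trem2, the lipid-sensing receptor, at -1.24. The T cell list fell in 12 of 14, mast cell genes in 8 of 10 and proliferation genes in 14 of 15. Of 76 cytosolic ribosome genes 44 fell and none rose, at a smaller median slope of -0.22.

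Fasn was 7.84, 8.43, 9.11, 10.65, 8.38 and 10.72 log2 CPM in HFD fl/fl and 7.55 to 8.65 in HFD AKO mice 1 to 5, with 9.64 in mouse 6. With Fasn, 24.6% of genes had a positive and 26% a negative slope. All 21 adipocyte markers rose and 12 of 13 lipid-associated macrophage genes fell. The lowest p fell to Cdsn, corneodesmosin (slope 1.04, edgeR adjusted p = 1.04e-09). Hmox1, which degrades heme, had a slope of -1.44. Fasn and Acly correlated at r = 0.9005 over 24 mice (rho = 0.9183, permutation adjusted p = 1.88e-05) and at 0.8186 without the 2 farthest.

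Mest and Sfrp5 are known for rising with fat mass expansion in mice. Mest was 9.09, 8.10, 7.89, 8.72, 8.32 and 8.45 log2 CPM in chow fl/fl and 6.76, 6.73, 8.70, 9.42, 7.66 and 9.27 in HFD fl/fl, where mice 3, 4 and 6 lay above mice 1, 2 and 5. Sfrp5, a secreted Wnt inhibitor, ranged from 4.46 to 8.99 in HFD fl/fl and ordered the same mice on top, with mice 1 and 5 lowest. The pair correlated at r = 0.8891 (rho = 0.9226, permutation adjusted p = 1.88e-05), at 0.9123 without the 2 farthest and at 0.742 without the 5 libraries on the other diet's side. With Mest, 25.3% of genes had a positive and 25.3% a negative slope. Those with the lowest p included Cdh5 (0.677) and Sox17, an endothelial transcription factor (0.823). The number of genes called with Mest, 7608, was 2102 without the 5 libraries on the other diet's side.

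With Cd68 as anchor, 25.3% of genes had a positive and 23.3% a negative slope. The gene with the lowest p was Atp6v0d2, a subunit of the lysosomal proton pump (slope 1.26, edgeR adjusted p = 9.25e-15). It ran from 4.52 to 9.37 log2 CPM in chow fl/fl and from 8.89 to 9.82 in HFD AKO. Trem2 had a slope of 1.2 (3.03e-14), Lgals3, galectin-3, 0.917 (5.73e-11) and Spp1, osteopontin, 1.27 (9.53e-09), all by edgeR with adjustment. Of 13 lipid-associated macrophage genes 12 rose, and of the other 16 macrophage markers 14 rose while Cd163 (-0.452) and Lyve1 (-0.654) fell. The proliferation list rose in 15 of 15 with a median slope of 0.569, and the ribosome list in 59 of 76 with a median of 0.238, against 0.00236 over all genes. All 21 adipocyte markers fell. Scd1 led the negative slopes (-0.861, edgeR adjusted p = 1.22e-11).

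Trem2 shows how far these mice lay apart. In chow fl/fl it was 4.09 log2 CPM in mouse 1 and 8.05 to 8.72 in mice 2 to 6. In chow AKO it was 5, 7, 5.45, 7.61, 8.47 and 7.53. In HFD fl/fl it was 8.78, 9.17, 8.08, 5.74, 8.30 and 6.26, and in HFD AKO 8.71, 8.80, 8.68, 9.05, 8.89 and 8.13. Within HFD AKO the range was under 1 log2 unit, whereas each other group spanned more than 3. Trem2 and Atp6v0d2 had the highest r in their list, 0.991, and Cd68 and Lgals3 correlated at r = 0.9648 (rho = 0.8791, permutation adjusted p = 1.88e-05). Adgre1 and Lyve1 had the lowest r of the macrophage list, -0.875.

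Lymphoid and mast cell genes added swings of their own. The mean residual of the T cell list was 2.43 in chow AKO mouse 6 and between -0.89 and 0.24 in the other 5 mice of that group. The mast cell list scored 1.88, 1.2, 0.36, -2.06, 0.94 and -2.32 in HFD fl/fl. Cpa3, mast cell carboxypeptidase, was 9.07, 8.88, 7.44, 3.83, 7.87 and 3.80 log2 CPM there, so mice 4 and 6 lay far below. In HFD AKO it was 8.25 to 8.90 in mice 1 to 5 and 7.37 in mouse 6. Cpa3 and Cma1, a chymase of the same granules, had the highest r of the list (0.994).

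Antibody genes were among those with the largest spread in each group except chow fl/fl, as members of the rule that takes the 10 genes of largest SD. Ighg2b, an IgG heavy chain, was 9.04, 6.84, 5.94, -1.37, 7.05 and 2.11 log2 CPM in HFD fl/fl (SD 3.84), highest in mouse 1 and lowest in mouse 4. Ighg1 was 3.96, 4.73, 5.41, -0.98, -1.48 and -0.54 in HFD AKO (SD 3.17), with mice 1 to 3 apart from mice 4 to 6. Jchain, which joins IgM and IgA polymers, ran from 2.69 to 10.10 in HFD fl/fl and from 5.15 to 8.77 in HFD AKO. The B cell list kept a wide score in HFD AKO (SD 1.39, against 1.35 in HFD fl/fl), unlike the macrophage list there (SD 0.133 against 0.757). These SDs are descriptions and their difference was not tested. The 2 lists also differ in level, and low counts spread wider on the log scale. Mean levels were -1.38 to 3.08 log2 CPM for B cell genes and 4.8 to 11.7 for macrophage genes.

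A few genes were on in some mice and off in others of the same group, here meaning 0 counts in at least 2 libraries and 5 CPM or more in at least 2. Only 4 genes met this. Rnase2a had 606, 23, 416, 3, 0 and 0 counts in chow AKO mice 1 to 6. Mrgprg had 3, 0, 0, 178, 0 and 192 in HFD fl/fl, so it was read in mice 4 and 6. Ces1c and Azgp1, a carboxylesterase and a secreted lipid-mobilising glycoprotein, had 92 and 88 counts in chow fl/fl mouse 3, 122 and 107 in mouse 5, and 0 in mice 1 and 2. A count of 0 allows up to 3 counts, and this covers counting error only.

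**Figure D3:**
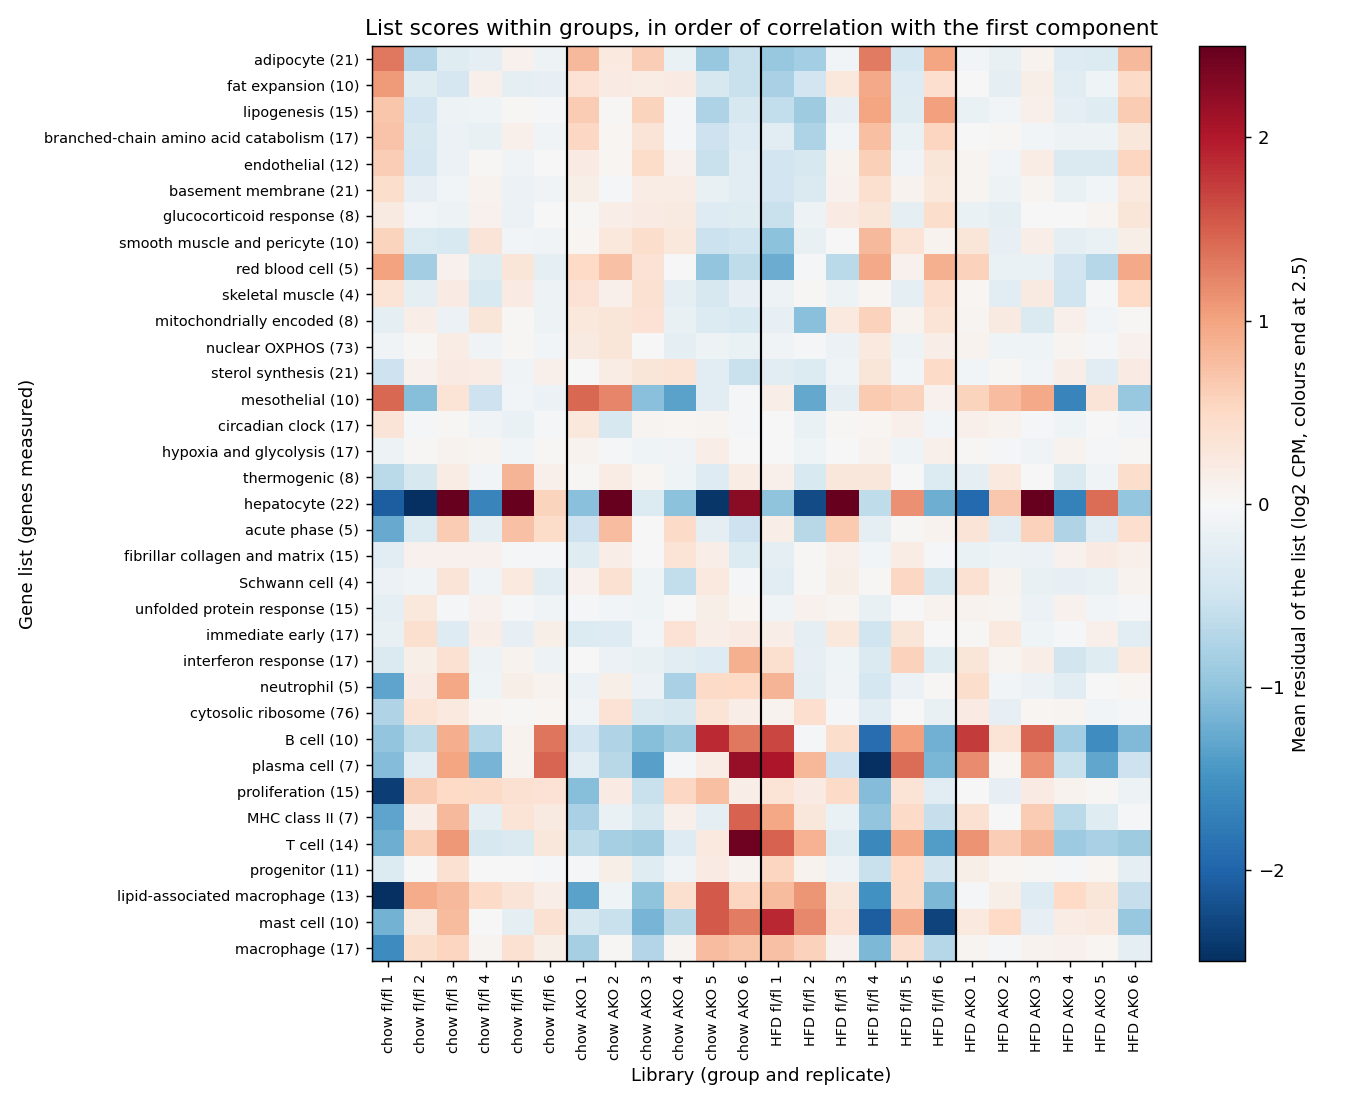
Mean residual in log2 CPM of each gene list (rows, number of genes measured in brackets, ordered by correlation with the first component) in each library (columns). Red is above and blue below the group mean, with colours ending at 2.5. HFD AKO columns are pale for macrophage genes (score SD 0.133) and coloured for B cell genes (1.39). Mean levels were 4.8 to 11.7 log2 CPM for macrophage genes and -1.38 to 3.08 for B cell genes.

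Col1a1, a chain of fibrillar collagen type I, was 8.5 log2 CPM in chow fl/fl mouse 1 and 9.07 to 9.81 in the others. In chow AKO it spanned 8.71 to 10.51, in HFD fl/fl 9.10 to 10.32 and in HFD AKO 9.81 to 10.65. With Col1a1, 13.4% of genes had a positive and 14.1% a negative slope. Only 4 of the other 14 fibrillar collagen and matrix genes rose, among them Col3a1, which correlated with it at r = 0.8774 (rho = 0.873, permutation adjusted p = 1.88e-05) and at 0.8265 without the 2 farthest. More lipid-associated macrophage genes rose (12 of 13), and 17 of 21 adipocyte markers fell. Adipoq and Col1a1 correlated at r = -0.7842 (rho = -0.7861, permutation adjusted p = 2e-04) and at -0.7053 without the 2 farthest. Mrgprg had the lowest p with Col1a1 at a slope of -8.85, and had 0 counts in all 6 HFD AKO mice. The number called with Col1a1, 4135, was 2700 without HFD fl/fl mouse 4, 1679 without the 5 libraries on the other diet's side and 0 in the HFD-fed mice alone, where 3440 genes had an unadjusted p under 0.05.

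Pecam1, an adhesion protein of endothelium, was 5.97, 6.98, 7.37, 7.59, 6.70 and 7.49 log2 CPM in HFD fl/fl and 7.04 to 8.08 in chow AKO. With Pecam1, 17.9% of genes had a positive and 16% a negative slope. Of the other 11 endothelial markers 7 rose and none fell, but 18 of 21 adipocyte markers rose too. Sod3, extracellular superoxide dismutase, had the lowest p (slope 1.34, edgeR adjusted p = 7.14e-06). Pecam1 and Cdh5 correlated at r = 0.7901 (rho = 0.8278, permutation adjusted p = 0.00024) and at 0.8305 without the 2 farthest. The number called with Pecam1, 5100, was 2842 without HFD fl/fl mouse 1 and 612 without the 5 libraries on the other diet's side. In chow-fed mice alone edgeR called 0 genes with Pecam1, with 2990 at an unadjusted p under 0.05.

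Mesothelial genes moved together but followed the first component only weakly. All 10 markers were measured, with a median r of 0.822 among them, from 0.51 between Msln and Wt1 to 0.966 between Upk1b and Gpm6a. Their mean residual correlated with the first component at 0.238, against 0.95 for the adipocyte list, and with the second component at 0.579. Scores were 1.44, 1.23 and 1.44 in chow fl/fl mouse 1 and chow AKO mice 2 and 1, and -1.66 in HFD AKO mouse 4. Upk3b, a uroplakin of mesothelium, was 0.88 log2 CPM in that mouse and 2.09 to 4.38 in the other HFD AKO mice. The spread of this list in HFD AKO (score SD 1.05) lay within the range of the other groups (0.706 to 1.14). Of the 10 genes, 7 fell with Fos (13.5% of all genes), 6 with Col1a1 (14.1%) and 4 with Cd68 (23.3%), and none rose with these. With Adipoq 4 rose (23.7% of all genes) and none fell. None was called with Pecam1, Lama4 or Dbp.

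Lama4 itself varied widely among mice of a group. In chow fl/fl it was 7.62, 5.96, 5.37, 6.75, 6.62 and 6.41 log2 CPM in mice 1 to 6. In chow AKO it was 7.06, 6.85, 6.98, 6.79, 6.01 and 6.45. Among HFD fl/fl mice it was 5.02, 5.93, 6.60, 7.08, 5.55 and 6.95, and in HFD AKO 5.37, 5.19, 5.61, 5.45, 5.5 and 6.53. Mice 3, 4 and 6 of HFD fl/fl and mouse 6 of HFD AKO, the same mice as on the chow side of the 155 genes, were the highest of their groups. With Lama4, 26.8% of genes had a positive and 27.6% a negative slope, a larger share than with the other 8 anchors when all 24 libraries entered. Without the 5 libraries on the other diet's side 4003 genes were called with Lama4, fewer than with Adipoq (5131) or Cd68 (4900).

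Adipocyte and endothelial genes were among those that rose with Lama4. Of 21 adipocyte markers 20 rose (median slope 0.905 against -0.00535 over all genes) and of 12 endothelial markers 10 rose. So did 14 of 17 branched-chain amino acid genes, 8 of 10 fat expansion genes and 4 of 5 red blood cell genes. Adipoq and Lama4 correlated at r = 0.8072 (rho = 0.7887, permutation adjusted p = 1.88e-05) and at 0.7195 without the 2 farthest, and Pecam1 and Lama4 at r = 0.7227 (rho = 0.7339, permutation adjusted p = 0.000259) and at 0.6299. In chow-fed mice alone Pecam1 and Lama4 no longer passed (r = 0.505, permutation adjusted p = 0.0831). Without the 5 libraries on the other diet's side r was 0.85 with Adipoq and 0.743 with Pecam1. Ccdc80, a secreted matrix protein of adipose tissue, had the lowest p (slope 1.28, edgeR adjusted p = 3.88e-10). Rgs19, a regulator of G-protein signalling, led the negative slopes (-0.761, edgeR adjusted p = 1.11e-09). Of 13 lipid-associated macrophage genes 12 fell.

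Partner chains of laminin α4 differed in how closely they followed it. Of the other 20 basement membrane genes measured, 8 rose with Lama4 and 1 fell. Lamc1, the laminin γ1 chain, had a slope of 0.783 (edgeR adjusted p = 9.11e-07) and correlated at r = 0.8752 (rho = 0.8548, permutation adjusted p = 1.88e-05). That r was 0.854 without the 2 farthest and 0.581 without the 5 libraries on the other diet's side. Nid1, nidogen, which bridges laminin and collagen IV, had a slope of 0.754, and Hspg2, perlecan, 0.544. Lama2, another α chain, fell at -0.246 (edgeR adjusted p = 0.0185). Col4a1 and Col4a2, the most widespread chains of collagen IV, had slopes of 0.0767 and -0.0195 (edgeR adjusted p = 0.416 and 0.846).

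Lamb1, the laminin β1 chain, stayed between 7.47 and 8.08 log2 CPM in all 24 mice. It correlated with Lama4 at r = 0.4876 (rho = 0.4557, permutation adjusted p = 0.0347), at 0.3424 without the 2 farthest, and its slope of 0.114 did not pass (edgeR adjusted p = 0.107). In the correlation of Lama4 and Lamb1 the call was lost in 13 of the 24 analyses that left out a single mouse, among them each HFD AKO mouse, with r as low as 0.368 without HFD fl/fl mouse 1.

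Gene lists differed in how closely their members moved together, measured as the median r over pairs of genes within a list. Over all pairs of the 15020 genes the median r was -0.002 and the middle 50% of pairs lay between -0.303 and 0.305. Several cell type lists stood above that range: lipid-associated macrophage 0.926, red blood cell 0.919, B cell 0.85, macrophage 0.846, T cell 0.836, mast cell 0.821, adipocyte 0.774 and endothelial 0.648. Proliferation genes reached 0.861 and ribosome genes 0.697. Inside the range lay the cell type lists for progenitors 0.291, smooth muscle and pericytes 0.187, neutrophils 0.181, Schwann cells 0.135 and skeletal muscle -0.0622. Also inside it lay basement membrane 0.246, fibrillar collagen and matrix 0.216, immediate early 0.2, unfolded protein response 0.0597, circadian clock 0.00394 and hypoxia and glycolysis -0.0502. Nuclear OXPHOS genes (0.4) and sterol synthesis genes (0.381) lay just above it. These are descriptions of lists of unequal level and size.

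**Figure D4:**
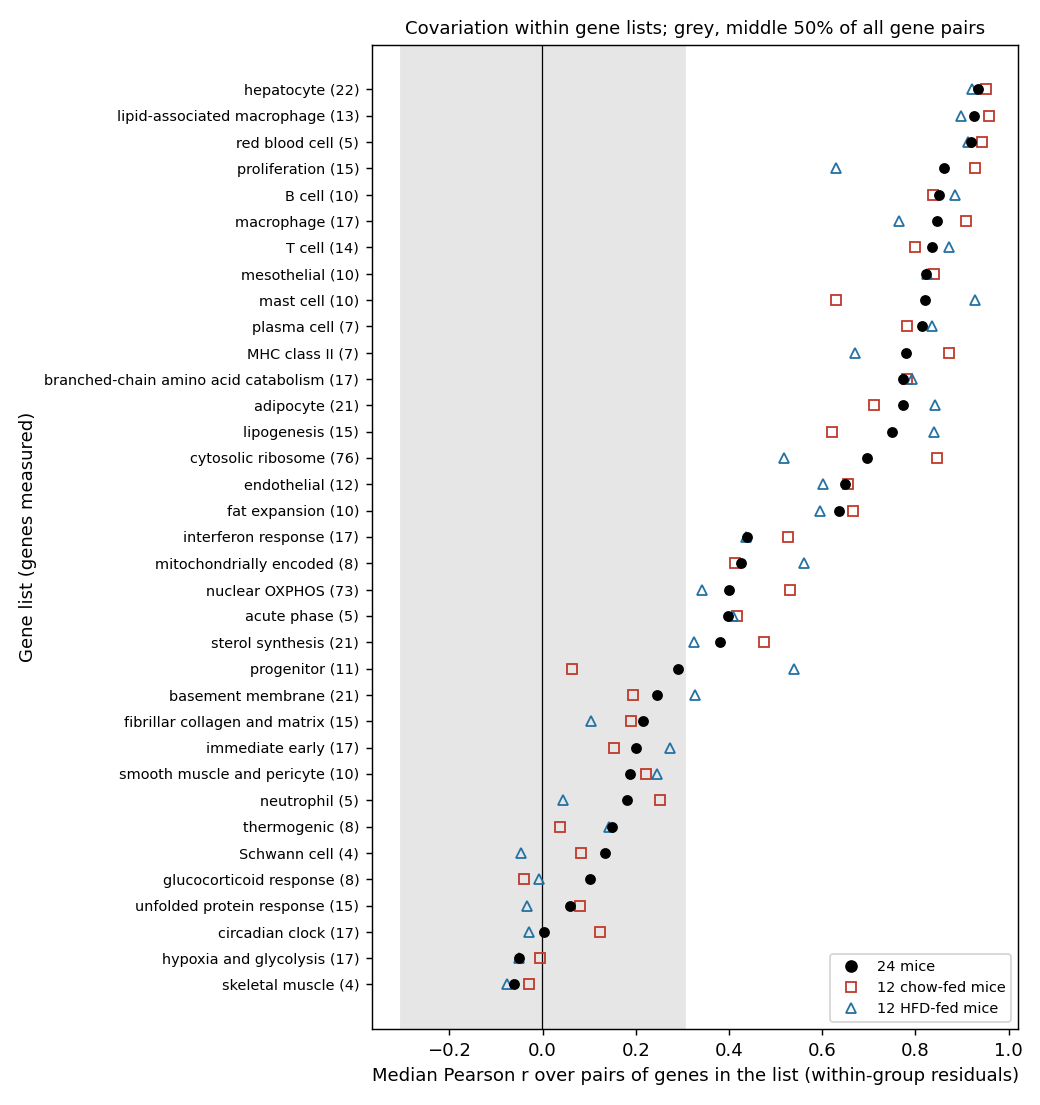
Median Pearson r of residuals over pairs of genes in each list (x axis), for all 24 mice (filled circles), 12 chow-fed mice (squares) and 12 HFD-fed mice (triangles). The grey band holds the middle 50% of all gene pairs, from -0.303 to 0.305; the circadian clock list sits at 0.00394 and the lipid-associated macrophage list at 0.926.

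Sterol synthesis genes split in their relation to the first component. Hmgcs1, which makes HMG-CoA in the cytosol, followed it at r = 0.925 and Insig1, which retains SREBP in the endoplasmic reticulum, at 0.737. Srebf2, the transcription factor of this pathway, went the other way at -0.6. Hmgcs1 was 9.39, 8.29, 8.23, 8.90, 8.34 and 8.71 log2 CPM in chow fl/fl and 7.17, 7.34, 8.48, 9.28, 7.70 and 9.03 in HFD fl/fl. Fasn and Hmgcs1 correlated at r = 0.8893 (rho = 0.8783, permutation adjusted p = 1.88e-05) and at 0.8196 without the 2 farthest. With Adipoq, 9 of 21 sterol genes rose and 4 fell, beside 23.7% and 25.7% of all genes.

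The promoter of Hmgcs1 is shown because Hmgcs1 was the only sterol gene whose window held the classical sterol response element. The 300 bases span the gene's start in RefSeq (chr13:119690101-119690400, plus strand, GRCm38.p6), with the element in capitals.
Hmgcs1: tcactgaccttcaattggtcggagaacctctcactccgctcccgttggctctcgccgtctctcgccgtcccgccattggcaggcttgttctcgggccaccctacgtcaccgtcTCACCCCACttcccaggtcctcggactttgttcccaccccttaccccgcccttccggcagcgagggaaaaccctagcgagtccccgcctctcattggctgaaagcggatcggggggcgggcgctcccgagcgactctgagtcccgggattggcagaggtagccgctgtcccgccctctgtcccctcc
The letters searched on both strands were TCACNCCAC. Of 14 sterol genes with a promoter in the table, 1 held them (7.14%), against 1.44% of all 27025 genes. Of 14 clock genes 4 held the E-box CACGTG (28.6%, against 8.09% of all genes): Per1, Cry1, Tef and Bhlhe41. Per3 alone held the D-box TTATGTAA (7.14% of 14, against 1.11%). Of 14 immediate early genes, Egr2 and Zfp36 held a CArG box (14.3%, against 1.81%), and Dusp1 and Btg2 held the cAMP response element TGACGTCA (14.3%, against 2.03%). A match is a description of letters and says nothing of binding.

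Clock genes had no shared direction among mice of a group, with a median r of 0.00394. Dbp, a clock output factor whose level normally cycles strongly over the day, stayed between 3.19 and 4.31 log2 CPM in all 24 mice. With Dbp, 0% of genes had a positive and 0.00666% a negative slope. The only gene called was Txnl4a, a spliceosome component (slope -1.03, edgeR adjusted p = 0.0229). At an unadjusted p under 0.05 there were 2560 genes, and DESeq2 called 329. Dbp and Arntl, its activator, correlated at r = 0.04019 (rho = 0.12, permutation adjusted p = 0.866), and Dbp and Nr1d1 at r = -0.03495 (rho = -0.1261, permutation adjusted p = 0.866). Without the 2 farthest these were 0.2512 and -0.2376. Within the list, Npas2 correlated with Bhlhe41 at 0.82 and with Cry2 at -0.793. The first component took these up on opposite sides, with Cry2 at 0.906, Clock at 0.897, Bhlhe41 at -0.824 and Npas2 at -0.776.

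Fos, an immediate early gene, was 3.34 log2 CPM in chow fl/fl mouse 1 and 4.88 to 5.63 in the others, and 3.91 in HFD fl/fl mouse 4 against 4.81 to 5.33. With Fos, 13.4% of genes had a positive and 13.5% a negative slope. Of the other 16 immediate early genes 8 rose and none fell, while all 15 proliferation genes and 15 of 17 macrophage markers rose. Rab8b, a vesicle GTPase, was among the 5 positive genes of lowest p (slope 0.928), and Adrb3 among the negative (-2.13). Fos and Egr1 correlated at r = 0.2957 (rho = 0.253, permutation adjusted p = 0.198). Without the 2 farthest, mouse 1 of each chow group, r was 0.6163, and without chow fl/fl mouse 1 alone the correlation of Fos and Egr1 was 0.447 (permutation adjusted p = 0.0285). In HFD-fed mice alone it was 0.786 (permutation adjusted p = 0.0246), in chow-fed mice alone -0.0406, and with the replicate number as a block 0.477 (permutation adjusted p = 0.049). Within groups r ran from -0.6363 in chow AKO to 0.887 in HFD fl/fl. The number called with Fos, 4044, was 2406 without chow fl/fl mouse 1 and 0 in the HFD-fed mice alone, where 3564 genes had an unadjusted p under 0.05.

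The third component was led by genes of hepatocytes, which were then gathered into a list of 22 after these values had been seen. Ttr, transthyretin, was -0.38, -2.14, 5.76, 0.25, 6.00 and 3.31 log2 CPM in chow fl/fl and 0.78, -1.34, 6.33, 1.46, 3.49 and -0.29 in HFD fl/fl. Alb, serum albumin, was 7.46 in chow fl/fl mouse 3 and 8.08 in mouse 5, against 3.24 to 5.74 in the others. In HFD fl/fl it was 8.56 in mouse 3 and 2.11 to 5.55 elsewhere. The 22 genes had a median r of 0.934, and their mean residual correlated with the third component at 0.912 and with the first at -0.142. High scores came from mice of all 4 groups, for example 3.23 in chow fl/fl mouse 5, 2.59 in chow AKO mouse 2, 3.96 in HFD fl/fl mouse 3 and 2.52 in HFD AKO mouse 3. None of the 22 was called with any of the 9 anchors. The source of these transcripts was not tested.

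Genes were also clustered without lists. The 2000 genes of largest residual SD fell into 5 modules of at least 20 genes, holding 1853 of them. The first (862 genes) held 13 macrophage, 12 lipid-associated macrophage and 10 proliferation genes and had Adcy7, Cerk and Pirb, an inhibitory myeloid receptor, among its leading genes. The second (756 genes) held 16 adipocyte and 8 lipogenesis genes and centred on Palmd, Fermt2 and Fzd4. Their mean residuals correlated at -0.92. Clusters were built on these residuals, so the correlation is a description.

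The third module (152 genes) centred on Pmpcb, a mitochondrial processing peptidase. Among its 8 leading genes, Etfdh, Mrps28 and Iscu serve electron transfer, mitochondrial translation and iron-sulfur cluster assembly. The others were Wdr92, Rbbp9, Tdrd7 and Selenof. The module held 1 of the 2 nuclear OXPHOS genes clustered and 1 of the 3 mitochondrially encoded, so these lists do not describe it. Its mean residual was -2.13 in HFD fl/fl mouse 2, -0.96 in chow fl/fl mouse 3 and -0.89 in chow AKO mouse 2, against 0.92 in HFD fl/fl mouse 6. The fourth (59 genes) centred on Jchain and Igkc and held 11 immunoglobulin or T cell receptor segments. The fifth (24 genes) centred on Ptchd1 and followed the second component at -0.909. Its leading genes included Cenpe, Cenpf and Aspm of the mitotic spindle, beside Fmn1, Gm14636, Gm15513 and Slfn10-ps. Of its genes 62.5% were protein coding, against 93% of all genes clustered. Of the 12 proliferation genes clustered it held 2 and the first module 10, so that list does not describe it.

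Modules formed in mice of a single diet were then read in the mice of the other diet. Genes of the 7 modules formed in the 12 chow-fed mice had a median r of 0.719, 0.777, 0.811, 0.543, 0.798, 0.39 and 0.767 in the 12 HFD-fed mice, against 0.0389 over all genes clustered. The 4 modules formed in HFD-fed mice had 0.733, 0.632, 0.599 and 0.257 in chow-fed mice, against 0.0137. Of the 862 genes of the macrophage module, 715 were in the first module formed in chow-fed mice and 648 in the first formed in HFD-fed mice. The number of modules was 9 without the 5 libraries on the other diet's side and 6 without the 4 that stand apart.

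Mice of HFD fl/fl lay farther apart than mice of HFD AKO when all mice entered. The difference was not called without the mice that sat with the other diet, which left few mice in HFD fl/fl. The median SD of a gene within its group was 0.492 log2 CPM in HFD fl/fl, 0.391 in chow fl/fl, 0.376 in chow AKO and 0.292 in HFD AKO. HFD fl/fl had the largest SD of the 4 groups for 50.1% of genes and HFD AKO the smallest for 48%. An SD of 1 or more was reached by 13% of genes in HFD fl/fl and 3.29% in HFD AKO. The common biological coefficient of variation of edgeR was 0.442 and 0.234 in these groups.

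The distance of each mouse from its group mean was taken as the root mean square (RMS) of its residuals over all genes. It was 0.634 ± 0.0803 log2 CPM in HFD fl/fl (SD, n = 6) and 0.409 ± 0.0577 in HFD AKO (SD, n = 6). The difference of 0.225 had an exact permutation p of 0.00216 (two-sided), the smallest that 6 against 6 mice allow, and 0.013 after adjustment over the 6 pairs of groups. All distances of a group are taken from the same mean, so they are not independent, although the permutation treats them so. The p of this and every other distance test here may therefore be too small. Chow fl/fl was at 0.511 ± 0.221 and chow AKO at 0.511 ± 0.0789 (SD, n = 6 each). Chow AKO against either HFD group had an exact permutation adjusted p of 0.0692. Against HFD AKO this became 0.039 without chow AKO mouse 4 (difference 0.117) and 0.013 without HFD AKO mouse 6 (difference 0.139), by the same exact test, and the remaining pairs had 0.332 to 0.994.

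Without the 5 libraries on the other diet's side the difference between the HFD groups was 0.0726 (exact permutation adjusted p = 0.214). HFD fl/fl then held mice 1, 2 and 5, and HFD AKO mice 1 to 5. RMS distances were not corrected for group size, so they shrink in the smaller group, and fewer mice allow fewer permutations. Loss of the call therefore cannot show that the difference is absent, and both limits hold wherever mice are left out. The study removed outliers after a principal component analysis. An earlier analysis of these counts took these to be mouse 3 of chow fl/fl, mouse 5 of chow AKO and mice 3, 4 and 6 of HFD fl/fl, which is an inference. Without those 5 the difference was 0.0357 (exact permutation adjusted p = 0.982). Without the 4 that stand apart by gene counts it was 0.24 (exact permutation adjusted p = 0.0119), and chow fl/fl minus HFD fl/fl was -0.295, minus chow AKO -0.195 and minus HFD AKO -0.055 (exact permutation adjusted p = 0.0119, 0.0119 and 0.0476). Chow AKO minus HFD AKO, 0.102 with all mice, also passed there (0.14, exact permutation adjusted p = 0.0119), and without the 5 libraries on the other diet's side (0.14, exact permutation adjusted p = 0.026).

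**Figure D5:**
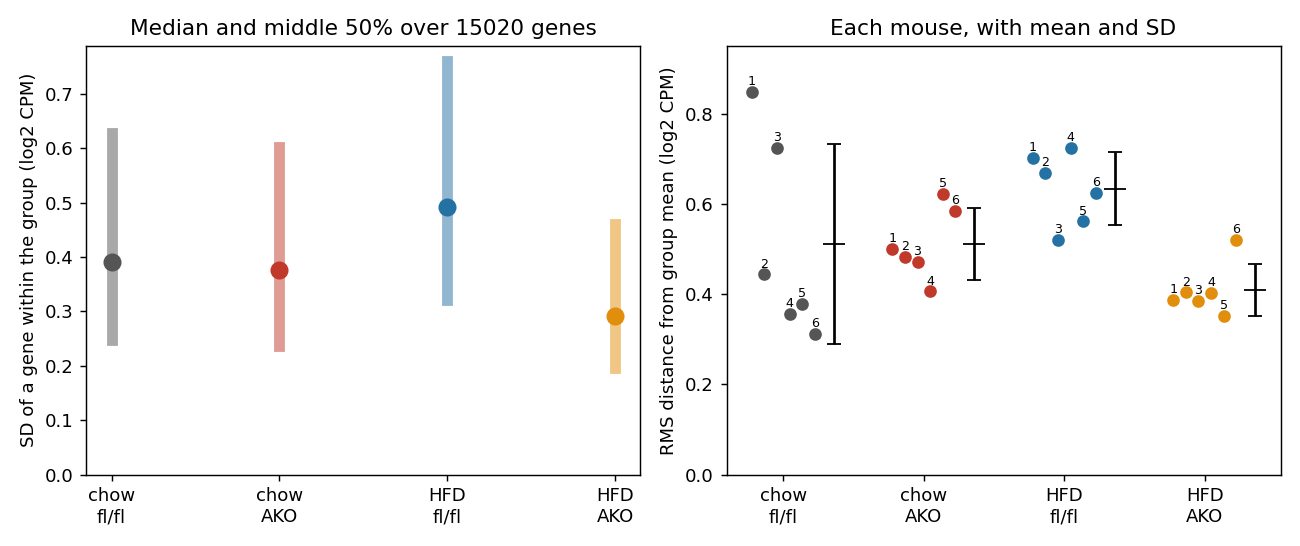
Left, median (point) and middle 50% (bar) of the within-group SD in log2 CPM over 15020 genes in each group of 6 mice. Right, RMS distance of each mouse from its group mean in log2 CPM (points, numbered by replicate), with the mean and SD beside them; HFD fl/fl averages 0.634 and HFD AKO 0.409.

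Single genes were tested for a spread that differs between groups by limma on absolute deviations from the group mean. This called 127 of 15020 genes (0.846%), and 113 of them had their largest spread in HFD fl/fl. The test called too many genes on simulated data, so these calls and their adjusted p are lenient. At an unadjusted p under 0.05 there were 3121 genes. Squared deviations or deviations from the group median called 0 genes. The number of genes whose spread differs between groups was 12 without HFD fl/fl mouse 1 and 1235 without chow fl/fl mouse 1, and it moved by more than 1.5 times for 16 of the 24 mice left out. It was 1284 without the 5 libraries on the other diet's side and 4196 without the 4 that stand apart. The genes named next are given as descriptions of these mice.

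Ppme1, a protein phosphatase methylesterase, and Cdc37, the kinase co-chaperone of Hsp90, were picked from the top of that test after values had been seen. Ppme1 was 2.76, 5.49, 5.38, 5.48, 3.05 and 5.54 log2 CPM in HFD fl/fl, with mice 1 and 5 apart, and 5.09 to 5.67 in all 12 chow-fed mice. In HFD AKO it ranged from 3.69 to 5.43 (limma adjusted p = 0.000119). Cdc37 was 4.93, 6.56, 6.39, 6.52, 4.89 and 6.36 in HFD fl/fl, with the same 2 mice low, and 5.75 to 6.60 in the chow-fed mice (limma adjusted p = 0.015). Mice 1 and 5 are also those with the lowest Adap2 in that group.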

How the data were processed

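QuantSeq 3′ libraries (50-base reads) were made from total RNA of eWAT with integrity numbers of 8 to 10, 1 library per mouse. The authors deposited whole-number counts per gene, made per their notes with the QuantSeq pipeline 1.8.8 on mm10/GRCm38. Their methods also name Rsubread. A deposited table of DESeq2-scaled values was not used.

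Counts were scaled by TMM and turned into log2 CPM (prior count 2) in edgeR 4.0.16 (R 4.3.3), and genes with 1 CPM in at least 3 mice were kept. Group means were subtracted. Slopes on 9 anchor genes were tested by edgeR's quasi-likelihood test with a coefficient per group, and spread by limma 3.58.1 on absolute deviations, which called too many genes on simulated data. Distances were compared by exact permutation, and 15 pairs by 100000 permutations within groups (two-sided, Benjamini-Hochberg). Modules were clustered by average linkage. DESeq2 1.42.0, limma-voom, other filters, scalings and left-out mice were alternatives. Of the table's gene IDs, 47 had no symbol in GENCODE M21. The named genes are the anchors and pair partners, listed genes, the 5 called genes of lowest p per anchor and direction, the 10 of largest SD per group at a mean of at least 5 CPM, the 8 nearest each module's mean, on and off genes, and the 10 of largest weight at each end of the first 2 components. Genes outside these are said to be chosen after their values were seen. Members and lists were chosen with earlier results of these data known. Intervals and floors cover counting error only. Some genes are not reported here.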

Additional observations from a re-analysis of the deposited data

Results flagged for a closer look

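Within each group of 6 mice, 216 values were examined for a highest or lowest mouse whose gap to the next as a share of the group's range exceeded Dixon's critical value, and 20 met this. Chance gives about 5 percent for independent values. Here anchors, lists, modules and components share genes and mice, so no excess over chance is read from the 20. Mouse 1 of chow fl/fl was low for Cd68 (6.37 log2 CPM, others 9.44 to 9.89) and Fos (3.34, others 4.88 to 5.63). Its mean residual was -1.57 for the macrophage list, -2.69 for lipid-associated macrophage genes, -2.36 for proliferation genes, -0.76 for cytosolic ribosome genes and -1.66 for module 1, and 1.06 for the fat expansion list.

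Mouse 6 of HFD AKO had a first component score of 43.33 (others -11.87 to -3.76), an RMS distance of 0.5199 (others 0.3516 to 0.4037) and Lama4 at 6.53 log2 CPM (others 5.19 to 5.61). Its mean residual was 0.82 for adipocyte genes, 0.28 for branched-chain amino acid genes, -0.46 for module 1 and 0.81 for module 2.

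Mouse 5 of HFD AKO had a total of 9156492 counts (others 10929393 to 11640690). Mouse 4 of HFD fl/fl had Fos at 3.91 log2 CPM (others 4.81 to 5.33). Mouse 1 of HFD fl/fl scored 0.85 for neutrophil genes (others -0.43 to 0.03). Mouse 6 of chow AKO scored 2.43 for T cell genes (others -0.89 to 0.24) and 0.89 for interferon response genes (others -0.32 to 0.01).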

How the results depend on the processing

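Without the 5 libraries an earlier analysis took as set aside, genes called were 4643 with Adipoq, 3059 with Fasn, 1375 with Mest, 4258 with Cd68, 26 with Col1a1, 488 with Pecam1 and 3652 with Lama4. The first component held 31.32%, 841 genes differed in spread and modules numbered 12. RMS differences were 0.00671 (chow fl/fl minus HFD fl/fl), 0.0244 (chow AKO minus HFD fl/fl) and 0.0357 (HFD fl/fl minus HFD AKO), and r of Dbp and Nr1d1 was 0.14. Without the 5 on the other diet's side the counts were 5131 (Adipoq), 4900 (Cd68), 3462 (Fos), 3798 (Fasn), 2102 (Mest), 1679 (Col1a1), 612 (Pecam1) and 4003 (Lama4), with 34.17% on the first component, 1284 genes differing in spread and 9 modules. The RMS differences were 0.00691, 0.0673 and 0.0726 in the same order, 0.14 for chow AKO minus HFD AKO, and r of Dbp and Nr1d1 was 0.109. There r was 0.876 for Fasn and Acly, 0.763 for Fasn and Hmgcs1 and 0.689 for Pecam1 and Cdh5, all still called. Without the 4 that stand apart, 7 genes were called with Dbp and 4196 differed in spread. RMS differences were -0.195 (chow fl/fl minus chow AKO), -0.295 (minus HFD fl/fl), -0.055 (minus HFD AKO) and 0.14 (chow AKO minus HFD AKO). Dbp correlated at -0.0552 with Arntl and 0.0941 with Nr1d1. In chow-fed mice alone the counts were 4466 (Adipoq), 4400 (Fasn), 3183 (Mest), 4652 (Cd68), 1014 (Col1a1), 0 (Pecam1, edgeR, 2990 at unadjusted p under 0.05), 0 (Dbp, 1150), 2486 (Fos) and 4461 (Lama4). There r was 0.0982 for Dbp and Nr1d1, -0.0406 for Fos and Egr1, 0.316 for Lama4 and Lamb1 and 0.505 for Lama4 and Pecam1, and the last pair of calls was lost. In HFD-fed mice alone edgeR called 0 with Col1a1 (3440 unadjusted), Dbp (2208) and Fos (3564), and r was -0.0698 for Dbp and Arntl and 0.786 for Fos and Egr1, which then passed. The genes called with Dbp were 4 under RLE, 0 unfiltered (2810 unadjusted), 2 under filterByExpr, 5 by limma-voom and 329 by DESeq2. The first component held 37.37% unfiltered, 50.95% at a mean of 5 CPM, 38.2% at a prior of 0.5 and 43.52% at 5. RMS of chow fl/fl minus chow AKO was 0.00434 unfiltered and 0.00687 at a prior of 0.5. Genes whose spread differs between groups were 194 at a mean of 5 CPM, 66 with voom weights and 0 with squared or median deviations. Modules numbered 9 at a cut of 0.4, 3 with fewer genes clustered and 12 with more. The cause of these changes was not tested.

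Same-numbered mice of different groups correlated at -0.534 to 0.714. The median for a pair of groups was -0.0875 to 0.123 for same-numbered mice and -0.0622 to 0.0108 for other mice. Whether mice of the same number share anything else was not tested. With the replicate block, 2763 to 7250 genes were called per anchor, except 0 with Dbp (1959 unadjusted), the first component held 45.33%, and r was -0.0151 for Dbp and Arntl and 0.477 for Fos and Egr1, which then passed. No other pair or distance call changed.

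Leaving out each mouse in turn gave 6248 to 7715 genes with Adipoq, 6542 to 7678 with Fasn, 6399 to 7768 with Mest, 6216 to 7412 with Cd68, 2700 to 5100 with Col1a1, 2842 to 6154 with Pecam1, 0 to 7 with Dbp, 2406 to 4594 with Fos and 7316 to 8299 with Lama4. The first component held 36.77% to 43.51%, and genes whose spread differs between groups were 12 to 1235. RMS differences were -0.093 to 0.0425 (chow fl/fl minus chow AKO), 0.06 to 0.139 (chow AKO minus HFD AKO) and 0.187 to 0.262 (HFD fl/fl minus HFD AKO). The range of r was -0.0442 to 0.232 for Dbp and Arntl, -0.247 to 0.0343 for Dbp and Nr1d1, 0.0742 to 0.447 for Fos and Egr1 and 0.368 to 0.615 for Lama4 and Lamb1.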
